A study of Homo sapiens with 16 samples.

Results

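Type I interferon response genes were measured in 2 triple-negative breast cancer cell lines after siRNA against YES1, a tyrosine kinase of the SRC family. The gene set has 51 members, taken by symbol from the 58735 genes of the deposited count tables, and all 51 were found there. They comprise 5 transcription factors, 5 genes for RNA sensors, PKR and ADAR, 4 OAS enzymes, 4 IFIT proteins, 4 membrane restriction factors, 10 MX GTPases and other antiviral effectors, 4 genes of the ISG15 system, 4 PARP and DTX3L genes, 3 antigen processing genes and 8 other interferon-induced genes.

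Polyadenylated RNA was sequenced in 16 libraries that form 4 groups of 4: MDA-MB-231 with siNS, MDA-MB-231 with siYES1, SUM159PT with siNS and SUM159PT with siYES1, all sampled at 48 h. Both lines are labelled WT, and all groups received an siRNA with Lipofectamine2000, so the control cells were transfected too. siNS is directed at firefly luciferase, and no untransfected group was analysed here. MDA-MB-231 was kept in an RPMI-type medium and SUM159PT in Ham/F12. The design text calls the 4 replicates technical, so the p-values measure only the spread among such samples. The columns mapped to SUM159PT carry a prefix that is not the name of this line and could stand for another, and the mapping rests on each sample's own description field.

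Type I interferons bind the receptor pair IFNAR1 and IFNAR2, and the kinases JAK1 and TYK2 then activate ISGF3, a complex that holds STAT2 and IRF9. ISGF3 binds the interferon-stimulated response element (ISRE) in the promoters of the antiviral genes described here. Upstream of interferon, sensors of foreign or misplaced RNA and DNA activate IRF3 and IRF7, which switch on interferon genes. Some breast tumours and cell lines are known to transcribe interferon-induced genes without added interferon.

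YES1 itself was lower with siYES1 in both lines. Its level in CPM, counts scaled to library size within each line, was 57.1 to 71.4 with siNS and 12.7 to 14.5 with siYES1 in MDA-MB-231, and 99.7 to 151 against 15.7 to 19.4 in SUM159PT. Library totals ran from 15680459 to 23451253 counts. Replicate 1 of SUM159PT siNS stood apart from the other 3 of its group, with a chi-square per degree of freedom over genes of 29.98 to 44.73 against 6.504 to 12.25 among the others, and the member calls that changed without it are given with the results. Of the receptors that triple-negative cancers lack, PGR had 0 to 2 counts and ESR1 at most 25 counts in any library, while ERBB2 was present at a mean of 45.2 TPM (transcript level per length, from counts over exon length scaled to one total) in MDA-MB-231 siNS and 25.3 in SUM159PT siNS. Summed TPM of 6 leukocyte markers was 16.1 to 19.6 with siNS and 3.06 to 5.34 with siYES1 in MDA-MB-231, and 5.97 to 10 against 0.68 to 2.39 in SUM159PT. Most of it was CD14, while CD3E and MS4A1 were at 0 in all siNS libraries. The part of these markers in the results was not tested. The same holds for 5 fibroblast markers, at 14.2 to 15.8 against 6.3 to 7.81 in MDA-MB-231 and 70.8 to 84.4 against 25.2 to 29.6 in SUM159PT, where PDGFRB fell in both lines and PDGFRA in SUM159PT, while LUM (0.10 in MDA-MB-231) and DCN (0.43 in SUM159PT) were not called. Of 3 endothelial markers PECAM1 fell by 1.23 and 2.57 on the log2 scale, and their sum was 2.29 to 4.46 against 1.19 to 2.09 in MDA-MB-231 and 0.814 to 1.67 against 0.118 to 0.218 in SUM159PT. Plasmacytoid dendritic cell markers, from the main interferon-producing cell of blood, summed to at most 3.32 TPM, with CLEC4C at 0 in every library. Among luminal keratin and epithelial markers, mean TPM in SUM159PT siNS was 0.217 for CDH1, 0.982 for EPCAM and 1.21 for KRT19. It was 154.8 for KRT18 and 182.5 for KRT8. Mesenchymal markers in the same group had means of 1309 for SPARC, 991.2 for VIM, 430.1 for AXL and 255.1 for CD44. Which line these levels belong to was not tested.

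Promoters were searched for the DNA element through which ISGF3 acts. RefSeq promoter entries (GRCh38.p14, 250 bases before to 50 after the start) existed for 41 of the 51 members, and no entry was found for IRF3, IRF7, DHX58, OAS2, OASL, IFIT2, IFITM2, MX2, TRIM22 and USP18. The core of the ISRE, searched as GAAA, any 2 bases and GAAA on both strands with overlapping matches allowed, was present in 25 of these 41 promoters (61%), against 1255 of all 35116 promoters of the table (3.57%). The gamma-activated site, searched as TTCNNNGAA (its own reverse complement), was present in 10 of 41 (24.4%) against 2689 of 35116 (7.66%). A match describes letters in a window and is not a measured binding site.

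Shown first are 6 windows from genes whose messenger RNA was higher with siYES1 in MDA-MB-231, so that their element can be set beside that of the genes that were lower. Each is 30 bases, read 5′ to 3′ along the gene's strand, with the core in capitals. Cores that begin with TTTC are the same motif on the other strand.
IFIT1 (chr10:89392497-89392526, gene on the plus strand): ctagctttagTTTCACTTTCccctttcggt
IFIT3 (chr10:89327865-89327894, plus): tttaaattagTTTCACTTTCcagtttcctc
HERC5 (chr4:88457035-88457064, plus): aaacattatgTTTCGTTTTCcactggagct
OAS3 (chr12:112938321-112938350, plus): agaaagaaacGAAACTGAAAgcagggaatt
SAMD9 (chr7:93118096-93118125, minus): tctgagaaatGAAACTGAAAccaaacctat
PLSCR1 (chr3:146544667-146544696, minus): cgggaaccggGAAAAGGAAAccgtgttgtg

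The next 5 come from genes that were lower with siYES1 in MDA-MB-231, of which ISG15, IFITM1 and LGALS3BP were also lower in SUM159PT.
ISG15 (chr1:1013380-1013409, plus): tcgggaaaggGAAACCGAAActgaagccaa
IFITM1 (chr11:313990-314019, plus): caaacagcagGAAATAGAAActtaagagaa
IFITM3 (chr11:320876-320905, minus): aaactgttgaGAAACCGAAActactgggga
BST2 (chr19:17405735-17405764, minus): ctgggaaactGAAACTGAAAacctaattaa
LGALS3BP (chr17:78979962-78979991, minus): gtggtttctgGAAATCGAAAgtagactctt

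The last 4 come from genes that were lower in SUM159PT and not called in MDA-MB-231. IFI44L holds the same 30 bases at 2 places, the second at chr1:78620365-78620394.
IFI44L (chr1:78620274-78620303, plus): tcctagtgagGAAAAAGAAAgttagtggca
IFI6 (chr1:27672288-27672317, minus): ggagagagggGAAAATGAAActgcagagtg
ISG20 (chr15:88638937-88638966, plus): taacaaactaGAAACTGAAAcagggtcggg
IFIT5 (chr10:89414513-89414542, plus): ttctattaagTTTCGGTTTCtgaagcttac

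By the GENCODE 29 annotation, the windows of OAS3, IFIT1, SAMD9, ISG15, HERC5 and IFI6 and the first of IFI44L touch no exon. Those of IFIT3, PLSCR1, IFITM1, IFITM3, ISG20 and LGALS3BP and the second of IFI44L touch an exon of the same gene, from transcripts that start further upstream than the RefSeq start. The IFIT5 window touches an exon of LIPA and the BST2 window exons of BISPR and MVB12A. OAS3, SAMD9, BST2 and ISG20 share the core GAAACTGAAA, and ISG15 and IFITM3 share GAAACCGAAA, so the same core letters occur in genes that were higher and in genes that were lower. The 43 core matches in 25 promoters began between base -164 and base 12 from the start, and 14 of the 25 promoters held more than 1.

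**Figure D1:**
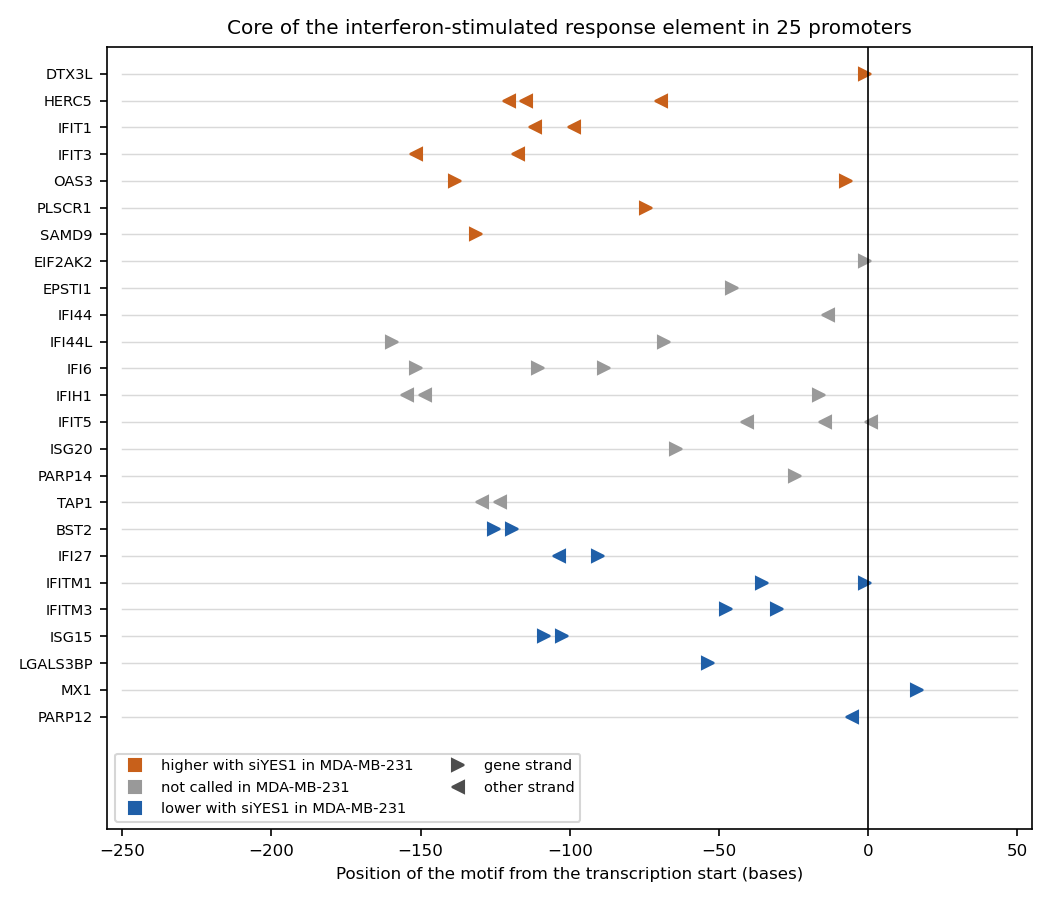
Position of each ISRE core match relative to the RefSeq transcription start (horizontal axis, bases) in the 25 member promoters that hold one, with arrowheads for the strand and colours for the call in MDA-MB-231. Genes that were higher, lower or not called all have matches within the 164 bases before the start or just after it.

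Before any effect of YES1 siRNA, the control cells of the 2 lines differed widely in these genes. Of 51 members tested between SUM159PT siNS and MDA-MB-231 siNS, 38 were lower in SUM159PT, 5 were higher and 8 were not called, where 37.6% of all 15411 genes tested were called lower and 36.3% higher (73.8% in either direction). A gene was called where edgeR's quasi-likelihood test gave an adjusted p under 0.05. The median log2 difference of the members was -1.19, against -0.04 for all genes, and it was again -1.19 with CMPK2, which had no counts in SUM159PT siNS, set at its bound. Line, medium, count table and any response to the transfection of the control cells cannot be told apart in this comparison. In bulk libraries fewer cells of a type and less RNA per cell cannot be told apart either.

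ISG15, the ubiquitin-like modifier, had the highest level per length of the members in MDA-MB-231 siNS, with TPM of 1434, 1943, 1884 and 2008. In SUM159PT siNS its TPM was 109, 122, 113 and 100, below every MDA-MB-231 library, with a log2 difference of -3.89 ± 0.14 (SE, adjusted p = 5.14e-12). IFIT3, which binds foreign RNA together with IFIT1, had TPM of 456, 456, 337 and 338 in MDA-MB-231 and 12.1, 9.36, 10.1 and 4.61 in SUM159PT (log2 difference -5.31 ± 0.23, adjusted p = 3.33e-11). The OAS, IFIT and antigen processing groups were lower in SUM159PT in every member, 4 of 4, 4 of 4 and 3 of 3.

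The 5 members that were higher in SUM159PT were IFI44L, IFITM1, PLSCR1, IFITM2 and IFI6. IFI44L had TPM of 1.24, 0.871, 0.924 and 0.809 in MDA-MB-231 siNS and 7.8, 6.75, 7.31 and 8.47 in SUM159PT siNS, so its groups lie apart in the direction opposite to most members (log2 difference 3.12 ± 0.18, adjusted p = 6.82e-10). IFITM1, a membrane protein that blocks viral entry, had TPM of 38.8, 48.4, 61.5 and 54.8 against 203, 245, 235 and 253 (2.35 ± 0.16, adjusted p = 4.16e-09). PLSCR1, a phospholipid scramblase, differed by 1.28 ± 0.12, IFITM2 by 1.23 ± 0.11 and IFI6, a mitochondrial and endoplasmic reticulum protein, by 0.77 ± 0.17.

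Several members were close to undetected in SUM159PT. CMPK2, a mitochondrial nucleotide kinase, had 238 counts over the MDA-MB-231 siNS libraries and 0 over those of SUM159PT, at least 18.8-fold lower taking 3 counts per library as the limit. RSAD2, which makes a chain-terminating nucleotide, had 2053 against 10 counts, OAS1 554 against 3 and XAF1 212 against 4. The 8 members not called between lines were IRF9, EIF2AK2, IFITM3, TRIM22, SP100, USP18, PARP9 and DTX3L, of which SP100 was called higher without SUM159PT siNS replicate 1 (0.33, adjusted p = 0.0132). EIF2AK2 was called higher without MDA-MB-231 siNS replicate 1 (adjusted p = 0.0203) and PARP9 without SUM159PT siNS replicate 2 (0.022). The log2 differences of the 8 ran from -0.18 ± 0.27 (SE) for TRIM22 to 0.35 ± 0.20 for PARP9, with IRF9 the least precise at 0.26 ± 0.49. Among them IFITM3 had a mean TPM of 1061 ± 61.4 (SD, n = 4) in MDA-MB-231 and 986 ± 43.7 in SUM159PT, where it was the member highest per length.

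In MDA-MB-231 siNS, ISG15 (1817 ± 260) was followed by LGALS3BP (1190 ± 59.5), IFITM3, BST2 (950 ± 85.1) and IFIT3 (396 ± 68.4), of which IFITM3 and BST2 differed by less than the sum of their SDs. In SUM159PT siNS, IFITM3 was followed by LGALS3BP (722 ± 29.7), BST2 (675 ± 53.7), IFITM2 (302 ± 26.4) and IFITM1 (234 ± 21.8), of which LGALS3BP and BST2 differed by less than the sum of their SDs. At the bottom of the order stood IFI44L (0.96 ± 0.191) and IRF9 (0.566 ± 0.306) in MDA-MB-231, and CMPK2 at 0 in SUM159PT. Exons of IRF9 overlap those of AL136295.5, so its reads may be split wrongly and its place in the order is uncertain. The summed TPM of all members was 7330 to 8170 in MDA-MB-231 siNS and 3889 to 3992 in SUM159PT siNS.

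**Figure D2:**
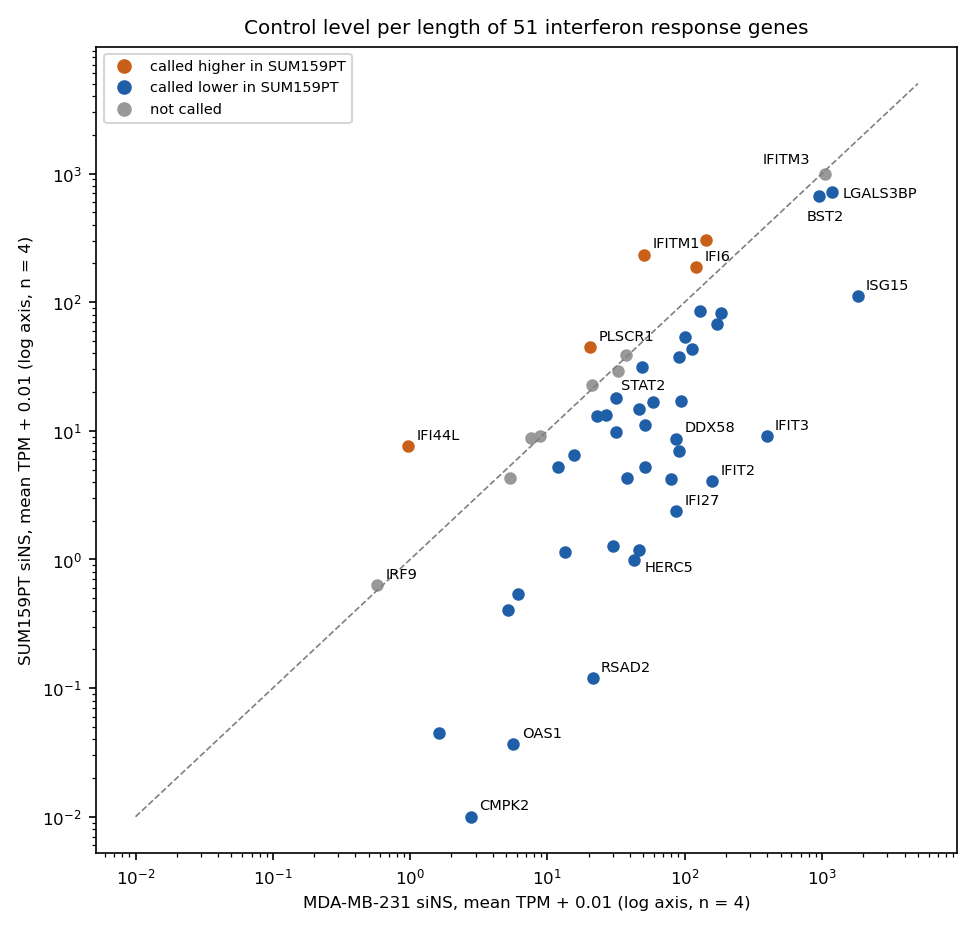
Mean TPM plus 0.01 of the 51 members in MDA-MB-231 siNS (horizontal, log axis) and SUM159PT siNS (vertical, log axis), 4 libraries each, coloured by the call between lines, with a dashed line of equality. Most points lie below the line, and IFI44L, IFITM1, IFITM2, PLSCR1 and IFI6 lie above it.

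In MDA-MB-231 the members were called in both directions at shares near those of all genes. Of 50 members tested, 11 rose, 17 fell and 22 were not called, where 24.9% of all 14319 genes tested were called higher and 27.5% lower (52.4% in either direction). The members' shares were 22% and 34%. The median log2 fold change was -0.13 against 0.00 for all genes, and summed member TPM went from 7330 to 8170 with siNS to 6010 to 6234 with siYES1. ISG15, LGALS3BP, IFITM3 and BST2 carried most of this sum, which is scaled to library totals alone, so it does not stand for the whole set. The siYES1 libraries lay all above the siNS libraries for 7 members and all below for 16, where 22.4% and 24.7% of all genes did so. Without siNS replicate 4, or without siYES1 replicate 3, 7 members were called higher. Without siNS replicate 1, 13 members rose and 22 fell. The chi-square per degree of freedom between that library and the others of its group was 17.12 to 23.65, with replicate 2 about as far from replicates 3 and 4 (17.58 and 19.13) and only the last pair close (4.134). The fit of all 16 libraries called 5 members higher in place of 11, and total-count scaling 7. Of all genes they called 2230 and 3105 higher, in place of 3570.

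Among the transcription factors, IRF7 and STAT2 fell in MDA-MB-231. IRF7, which amplifies interferon production, had CPM of 30.4, 37.9, 33.4 and 35.2 with siNS and 19.7, 19.9, 21.0 and 20.7 with siYES1. All siYES1 libraries lay below all siNS libraries (log2 fold change -0.75 ± 0.09, SE, adjusted p = 2.99e-06). STAT2 had 72.2, 74.8, 74.9 and 79.9 with siNS and 62.8, 57.8, 62.8 and 61.1 with siYES1, again without overlap (-0.30 ± 0.07, adjusted p = 0.00215). IRF1 (-0.12 ± 0.07, adjusted p = 0.169) and IRF3 (-0.17 ± 0.09, adjusted p = 0.138) were not called, though both passed without siNS replicate 1, at adjusted p = 0.0415 and 0.00208. IRF9 had 9, 12, 4 and 18 counts with siNS and 8, 11, 4 and 9 with siYES1, too few to test, and its exons overlap those of AL136295.5, so its count is uncertain.

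The RNA-binding effectors of the OAS and IFIT families rose or stayed uncalled in MDA-MB-231, with 1 exception. IFIT1, which binds RNA with a foreign cap, had CPM of 97.8, 112, 86.7 and 77.2 with siNS and 124.9, 133.9, 133.1 and 149.2 with siYES1. The groups did not overlap (0.53 ± 0.10, adjusted p = 0.000306). OAS1, which makes the second messenger for RNase L, went from 7.84, 7.77, 7.39 and 5.46 to 9.86, 10.0, 10.9 and 10.3, without overlap (0.53 ± 0.13, adjusted p = 0.00274, though 0.152 in a fit of all 16 libraries). OAS3 rose by 0.39 ± 0.10 (adjusted p = 0.00337). IFIT3 had 294, 321, 226 and 227 with siNS and 318, 317, 331 and 333 with siYES1, where siNS replicate 2 lay within the siYES1 range. Its call (0.28 ± 0.10, adjusted p = 0.0264) ended in 6 of 16 alternative settings, among them without siNS replicate 3 or 4 or siYES1 replicate 3 or 4 (adjusted p 0.0565 to 0.0827) and the fit of all 16 libraries (0.245). The exception was OASL, an OAS-like protein that aids RNA sensing by RIG-I, which fell from 76.6, 83.4, 87.3 and 76.4 to 66.3, 62.4, 69.9 and 63.9 (-0.30 ± 0.08, adjusted p = 0.00342, though 0.083 in the fit of all 16 libraries). The IFIT genes are close paralogs, so reads may be shared among them.

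Other antiviral effectors rose beside these. HERC5, the ligase that attaches ISG15 to proteins, had CPM of 53.5, 58.5, 49.7 and 46.5 with siNS and 70.7, 76.2, 81.5 and 76.4 with siYES1, and no libraries overlapped (0.55 ± 0.08, adjusted p = 4.35e-05). SAMD9L, which restricts poxviruses and cell growth, went from 68.7, 53.2, 47.4 and 50.2 to 85.9, 81.0, 78.9 and 78.4, without overlap (0.56 ± 0.10, adjusted p = 0.000202). PLSCR1 went from 23.7, 21.8, 23.6 and 21.6 to 30.8, 33.4, 32.1 and 35.5, also without overlap (0.54 ± 0.08, adjusted p = 5.46e-05). RSAD2 rose by 0.50 ± 0.09 (adjusted p = 0.000114, though 0.111 in the fit of all 16 libraries). XAF1, a proapoptotic protein, had the largest point estimate of the risers and overlapping groups, with 4.06, 1.37, 2.81 and 2.47 against 4.58, 5.72, 4.00 and 3.03. Its call (0.68 ± 0.26, adjusted p = 0.0379) ended in 8 of 16 settings, among them without siNS replicate 2, 3 or 4 and without siYES1 replicate 1, 2 or 3 (adjusted p 0.0537 to 0.139). The calls of SAMD9 (0.26 ± 0.10, adjusted p = 0.0381) and DTX3L (0.24 ± 0.09, adjusted p = 0.0255) ended in 8 and 7 settings. That of SAMD9 ended without siNS replicate 2, 3 or 4 or siYES1 replicate 1, 2 or 3 (adjusted p 0.066 to 0.117). That of DTX3L ended without siNS replicate 2 or 4 or siYES1 replicate 1, 2 or 3 (adjusted p 0.0589 to 0.0801).

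All 4 membrane restriction factors fell in MDA-MB-231, with a median log2 fold change of -0.61. IFITM1 had CPM of 10.3, 14.0, 16.9 and 15.1 with siNS and 7.89, 9.10, 7.19 and 5.92 with siYES1, without overlap (-0.89 ± 0.16, adjusted p = 0.000169). IFITM2, its neighbour and relative, went from 53.8, 58.2, 56.4 and 57.1 to 37.9, 37.9, 30.3 and 37.3 (-0.65 ± 0.09, adjusted p = 8.04e-06). The gene models of IFITM1 and IFITM2 overlap on the same strand and their reads may be shared, so the split between them is uncertain. IFITM3 fell from 339, 415, 353 and 354 to 229, 247, 250 and 259 (-0.57 ± 0.08, adjusted p = 1.05e-05). BST2, or tetherin, which holds budding virions at the cell surface, fell from 226, 293, 280 and 288 to 185, 197, 200 and 195 (-0.48 ± 0.08, adjusted p = 0.000116).

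MX2 and TRIM22 had the largest falls in MDA-MB-231. MX2, a GTPase that blocks retroviral capsids, had CPM of 16.8, 17.5, 17.7 and 16.4 with siNS and 5.34, 5.13, 5.82 and 4.31 with siYES1 (-1.73 ± 0.12, adjusted p = 4.44e-09). TRIM22, an antiviral ubiquitin ligase whose exons overlap those of OR56B1, went from 9.12, 7.98, 8.07 and 7.62 to 3.63, 2.92, 3.75 and 2.51 (-1.36 ± 0.15, adjusted p = 1.65e-06). In both genes each siYES1 library was below each siNS library. MX1, the related GTPase that acts on influenza virus, fell by 0.57 ± 0.10 (adjusted p = 0.000104).

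ISG15, IFI27 and LGALS3BP also fell. ISG15 had CPM of 330, 488, 451 and 482 with siNS and 305, 309, 315 and 318 with siYES1 (-0.49 ± 0.10, adjusted p = 0.000593). The groups did not overlap, though siNS replicate 1 lay near the siYES1 libraries. So ISG15 fell while HERC5, its ligase, rose, and HERC6 and USP18, its protease, were not called. HERC6 lay near the limit (-0.18 ± 0.08, adjusted p = 0.0534), with all siYES1 libraries below all siNS libraries. It was called lower in 3 of 16 settings (adjusted p down to 0.0199). IFI27 had 57.6, 81.5, 114 and 114 with siNS and 59.8, 61.4, 56.6 and 57.0 with siYES1, where siNS replicate 1 lay within the siYES1 range (-0.64 ± 0.16, adjusted p = 0.00251). LGALS3BP, a secreted glycoprotein, went from 1014, 1217, 1038 and 1089 to 792, 826, 803 and 824 (-0.43 ± 0.07, adjusted p = 0.000108). The other members that fell were IFI35 by 0.33, DDX58 (RIG-I) by 0.32, PSMB8, an immunoproteasome subunit, by 0.31 and PARP12 by 0.25 on the log2 scale. In the fit of all 16 libraries the calls of DDX58 and PARP12 ended (adjusted p = 0.0508 and 0.0972).

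**Figure D3:**
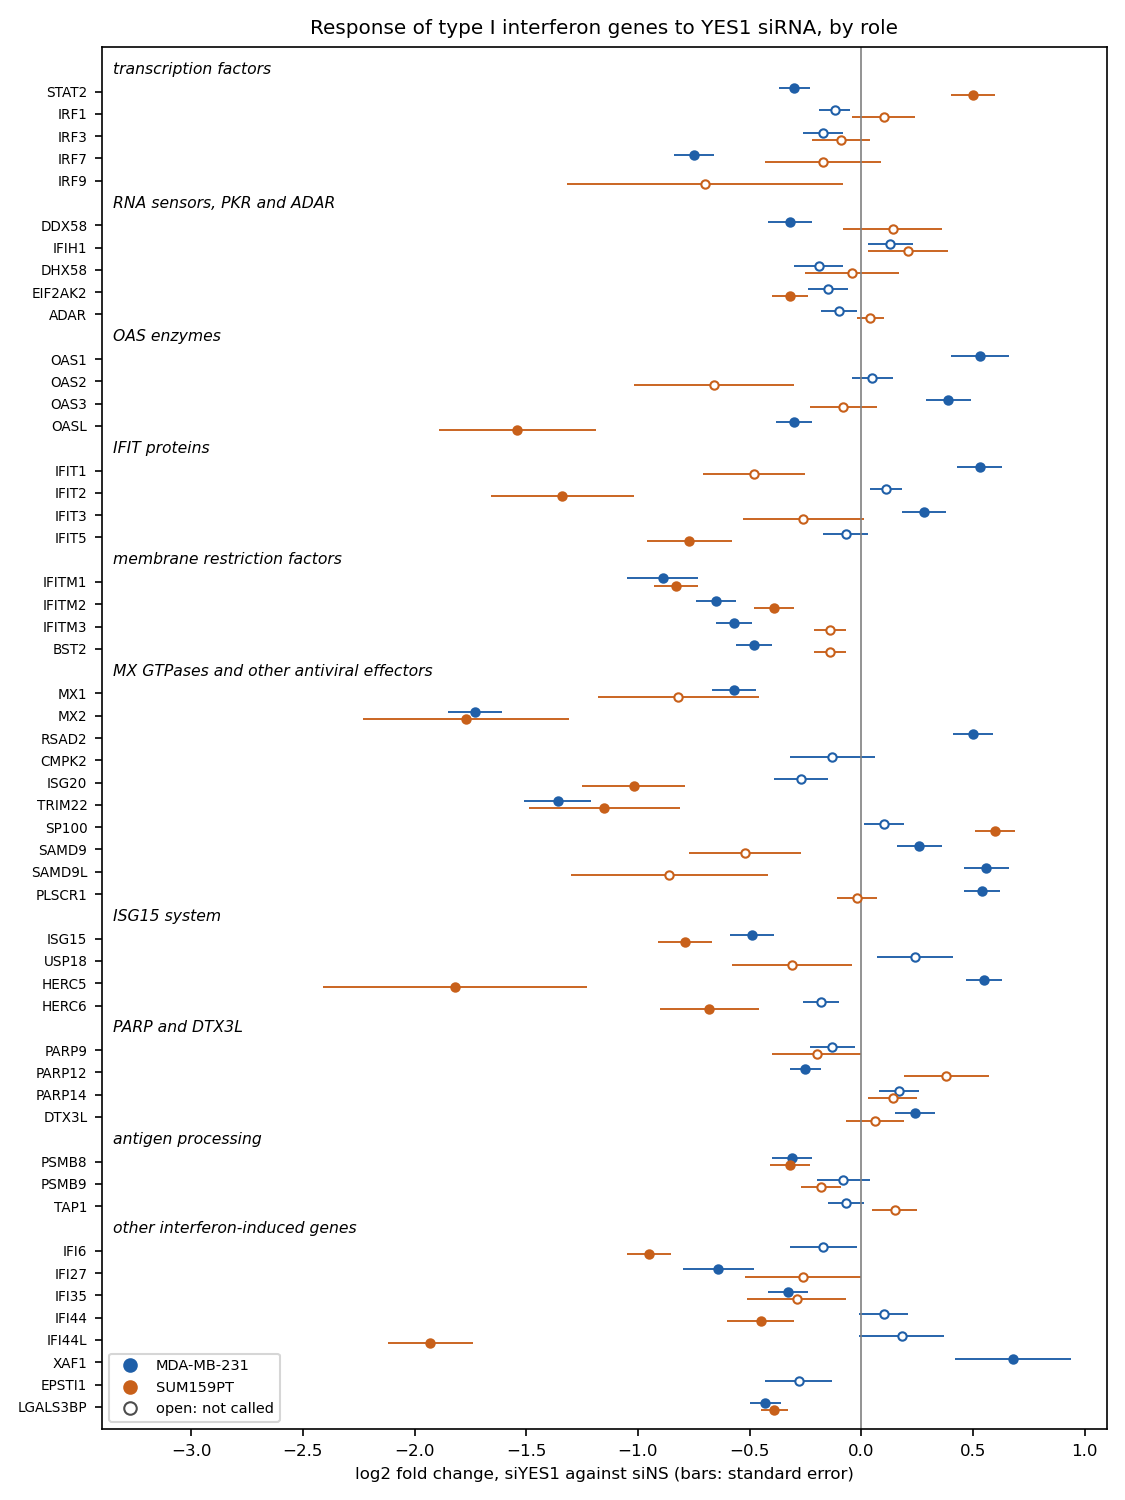
Log2 fold change of siYES1 against siNS (horizontal axis, bars of 1 standard error) for each member by role, in MDA-MB-231 (blue) and SUM159PT (orange), with open points for members not called and no point where a member was too low to test. MX2 and TRIM22 fell in both lines, the 4 membrane restriction factors fell in MDA-MB-231, and STAT2 and HERC5 lie on opposite sides of 0 in the 2 lines.

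In SUM159PT the called members were mostly lower with siYES1. Of 46 members tested, 17 fell, 2 rose and 27 were not called, where 19% of all 14469 genes tested were called lower and 17.7% higher (36.8% in either direction). The members' shares were 37% and 4.35%. The median log2 fold change was -0.31, against -0.03 for all genes, and summed member TPM went from 3889 to 3992 with siNS to 2880 to 2947 with siYES1. IFITM3, LGALS3BP and BST2 carried most of this sum, and it is scaled to library totals without TMM. Mean TPM of IFITM3 went from 986 to 797, while in the fit with TMM its log2 fold change was -0.14 and not called. The siYES1 libraries lay all below the siNS libraries for 18 members and all above for 2, where 18.6% and 18.2% of all genes did so. Scaling by total counts in place of TMM moved the median of all genes to -0.20, with 1394 genes called higher and 4173 lower in place of 2566 and 2755, and 2 members higher and 22 lower. Without siNS replicate 1, the library that stood apart, 3 members were higher and 18 lower. Without it PARP12 (0.58, adjusted p = 0.00189), IFITM3 (-0.20, adjusted p = 0.00434) and MX1 (-0.95, adjusted p = 0.05) gained a call and HERC6 lost it (-0.50, adjusted p = 0.0737). The fit of all 16 libraries also called OAS2 (-0.60), IFIT1 (-0.44), MX1 (-0.78) and SAMD9L (-0.80) lower (adjusted p = 0.0259, 0.0349, 0.00915 and 0.0395) and PARP12 higher. Of all genes, that fit called 3308 higher and 3317 lower.

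STAT2 and SP100 were the 2 members that rose. STAT2 had CPM of 47.2, 41.0, 48.8 and 59.2 with siNS and 69.8, 71.9, 67.7 and 68.6 with siYES1, so that all siYES1 libraries were higher (0.50 ± 0.10, adjusted p = 0.00225). SP100, a scaffold of nuclear bodies whose exons overlap those of HMGB1P3, went from 63.2, 82.3, 70.5 and 75.8 to 114, 111, 111 and 105, without overlap (0.60 ± 0.09, adjusted p = 0.000188). The other transcription factors were not called, with IRF1 at 0.10 ± 0.14 (adjusted p = 0.592), IRF3 at -0.09 ± 0.13 (adjusted p = 0.603), IRF7 at -0.17 ± 0.26 (adjusted p = 0.647) and IRF9, at 1 to 14 counts a library, at -0.70 ± 0.62 (adjusted p = 0.408). STAT2 rose while 17 other members fell. The 4 PARP and DTX3L genes were not called and ranged from -0.20 to 0.38, the highest being PARP12, which passed without siNS replicate 1 (0.58, adjusted p = 0.00189), with no filter (0.0165) and in the fit of all 16 libraries (0.0276).

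The 6 largest called falls in SUM159PT were in IFI44L, HERC5, MX2, OASL, IFIT2 and TRIM22. IFI44L, a feedback regulator of interferon responses, had CPM of 19.5, 18.2, 19.5 and 22.1 with siNS and 4.23, 5.49, 7.25 and 3.85 with siYES1. The groups lay far apart (-1.93 ± 0.19, adjusted p = 8.77e-06). MX2 had only 28, 22, 24 and 24 counts with siNS and 11, 5, 5 and 9 with siYES1, without overlap (-1.77 ± 0.46, adjusted p = 0.0082). HERC5 had 13, 25, 24 and 28 counts against 1, 9, 11 and 5, again without overlap. Its call (-1.82 ± 0.59, adjusted p = 0.0272) ended without siNS replicate 2, 3 or 4 and without siYES1 replicate 1 or 4 (adjusted p 0.0522 to 0.0827).

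OASL had CPM of 6.70, 6.69, 6.19 and 5.30 with siNS and 3.26, 2.39, 0.688 and 2.22 with siYES1, without overlap (-1.54 ± 0.35, adjusted p = 0.00372). IFIT2, whose exons overlap those of AL353751.1, went from 6.64, 3.02, 3.94 and 3.16 to 1.39, 1.68, 2.06 and 1.45, without overlap (-1.34 ± 0.32, adjusted p = 0.00504). TRIM22 had 10.4, 3.37, 7.20 and 5.25 against 1.98, 2.55, 4.08 and 3.17, where siNS replicate 2 lay within the siYES1 range (-1.15 ± 0.34, adjusted p = 0.016). Its call ended without siYES1 replicate 1 (adjusted p = 0.0522).

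The other falls in SUM159PT covered several roles. IFI6 had CPM of 40.8, 42.3, 42.1 and 40.7 with siNS and 23.1, 22.3, 20.9 and 19.4 with siYES1 (-0.95 ± 0.10, adjusted p = 1.04e-05). IFITM1 went from 53.5, 69.8, 66.2 and 69.7 to 37.6, 35.4, 34.7 and 38.0 (-0.83 ± 0.10, adjusted p = 4.22e-05). ISG15 went from 24.9, 30.4, 27.7 and 24.0 to 13.9, 17.1, 14.2 and 16.6 (-0.79 ± 0.12, adjusted p = 0.000316). In these genes no siYES1 library reached the lowest siNS library. ISG20, an exonuclease, fell by 1.02 ± 0.23, IFIT5 by 0.77 ± 0.19, IFITM2 by 0.39 ± 0.09, LGALS3BP by 0.39 ± 0.06, and EIF2AK2, the RNA-activated kinase PKR, by 0.32 ± 0.08 on the log2 scale. The calls of HERC6 (-0.68 ± 0.22), IFI44 (-0.45 ± 0.15) and PSMB8 (-0.32 ± 0.09) ended without single libraries. For HERC6 these were siNS replicate 1 and siYES1 replicates 1, 2 and 3 (adjusted p 0.0708 to 0.0775), for IFI44 siNS replicates 2 and 4 and siYES1 replicates 1, 2 and 3 (0.054 to 0.0859) and for PSMB8 siYES1 replicate 4 (0.0576).

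The members at the low end could not be tested in SUM159PT. CMPK2 had no counts in any library and XAF1 2, 2, 0 and 0 with siNS and none with siYES1. OAS1 had 0, 0, 3 and 0 counts against 0, 2, 0 and 4. RSAD2 had 10 counts in siNS replicate 4 and none elsewhere, and EPSTI1 had 31, 6, 2 and 7 against 7, 2, 15 and 5. So 3 of the genes that rose in MDA-MB-231, OAS1, RSAD2 and XAF1, were barely detectable in SUM159PT at this depth.

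**Figure D4:**
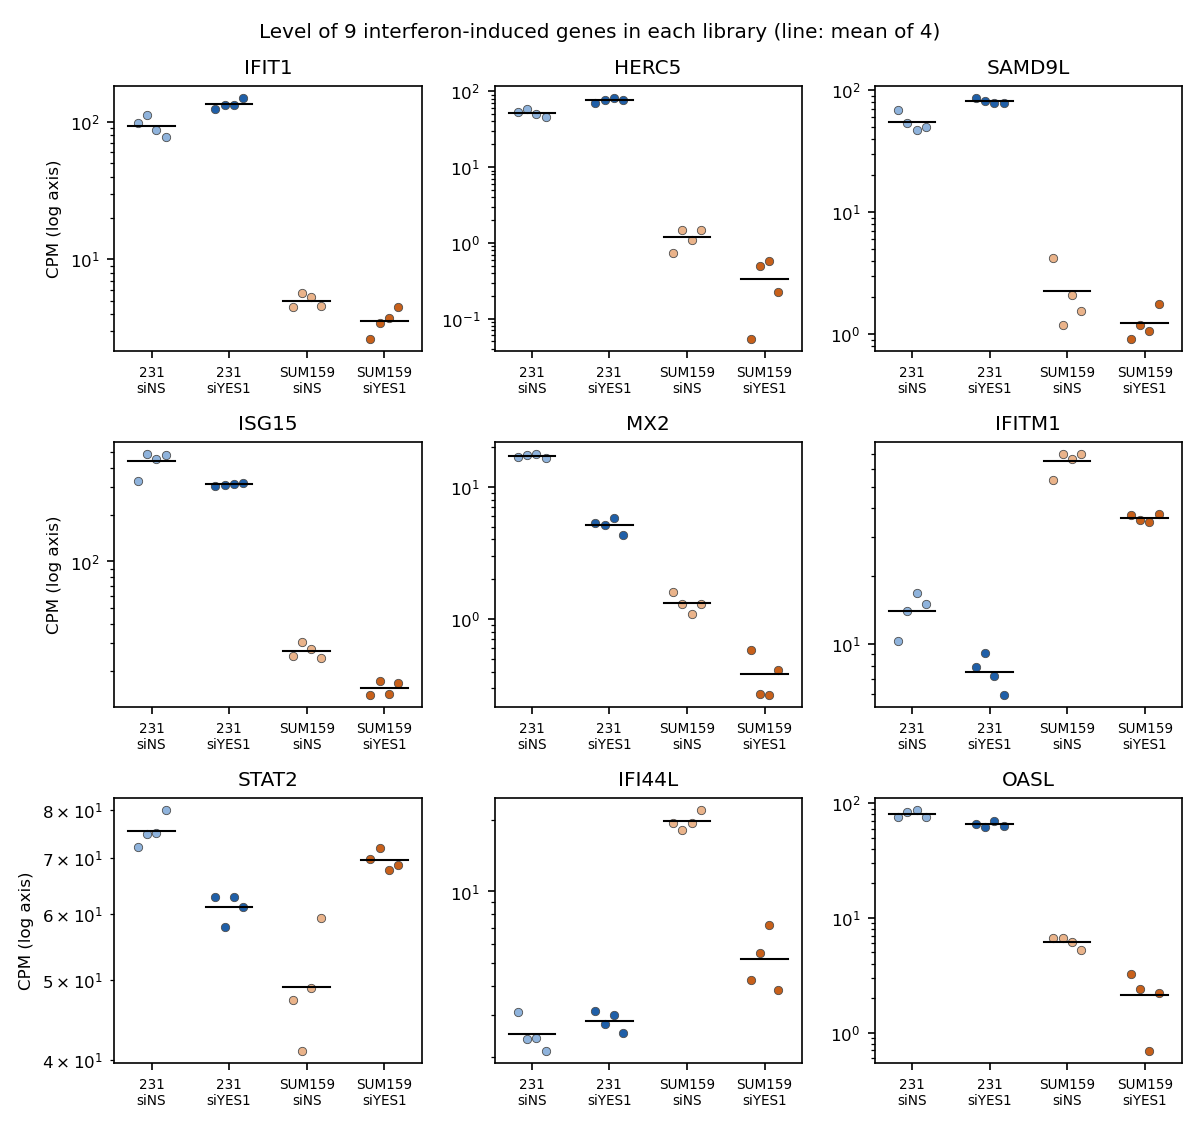
CPM on each line's scale (vertical, log axis) of 9 members in each of the 16 libraries, as points by group with a line at the mean of 4. IFIT1, HERC5 and SAMD9L were higher with siYES1 in MDA-MB-231, ISG15, MX2, IFITM1 and OASL were lower in both lines, and STAT2 moved in opposite directions.

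Set side by side, 45 members were tested in both lines. Lower in both were 8 of them, OASL, IFITM1, IFITM2, MX2, TRIM22, ISG15, PSMB8 and LGALS3BP (17.8%, against 11% of the 12689 genes tested in both). STAT2 and HERC5 were called in opposite directions (4.44%, against 3.65% of all genes). Called in neither were 11, namely IRF1, IRF3, IFIH1, DHX58, ADAR, OAS2, USP18, PARP9, PARP14, PSMB9 and TAP1. Across the 45 members the log2 fold changes of the 2 lines had Pearson's r of 0.19 and Spearman's rho of 0.11, a description over genes that are not independent, and 27 had the same sign (60%, against 63.9% of all genes).

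The difference of the siYES1 effect between lines was tested as an interaction in a fit of all 16 libraries, with SUM159PT taken minus MDA-MB-231. Of 51 members, the difference was called higher for 7 and lower for 10, where 15.4% and 8.85% of all 16299 genes tested were called so (24.3% in either direction), and the median over the members was 0.00 against 0.03. Since scaling factors were set over all 16 libraries, these differences are not exactly the SUM159PT value less the MDA-MB-231 value. Scaling within each line gave 5 higher and 14 lower members, with 1881 and 1891 of all genes in place of 2511 and 1442. Total counts gave 3 and 17 members, with 1375 and 2795 of all genes. Without SUM159PT siNS replicate 1 the difference was also called for DDX58 (0.71, adjusted p = 0.00682), OAS2 (-0.70, adjusted p = 0.045), ISG20 (-0.88, adjusted p = 0.00344) and IFI44 (-0.56, adjusted p = 0.0225), while IRF7, IFIT5 and IFITM2 lost the call (adjusted p = 0.0696, 0.0549 and 0.161).

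STAT2 had the largest difference toward SUM159PT, at 0.90 ± 0.13 on the log2 scale (adjusted p = 2.17e-05), lower with siYES1 in 4 of 4 MDA-MB-231 libraries than in any control and higher in 4 of 4 SUM159PT libraries. IFITM3 differed by 0.53 ± 0.11 (adjusted p = 0.000878), SP100 by 0.59 ± 0.13 (adjusted p = 0.00257) and BST2 by 0.44 ± 0.11 (adjusted p = 0.00601). PARP12 differed by 0.73 ± 0.21 (adjusted p = 0.0125) and IRF7 by 0.68 ± 0.22 (adjusted p = 0.0269), and under total counts both calls ended, as did that of BST2 (adjusted p = 0.109, 0.116 and 0.166). The IRF7 call also ended without MDA-MB-231 siNS replicate 2 or without SUM159PT siNS replicate 1 or 3 or siYES1 replicate 2 (adjusted p 0.0526 to 0.0872). The difference for IFITM2 (0.36 ± 0.13, adjusted p = 0.0461) ended in 20 of 24 settings, with adjusted p up to 0.399.

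HERC5 had the largest difference toward MDA-MB-231 among members with enough counts, at -2.29 ± 0.38 (adjusted p = 0.000108), since it rose in that line and fell in SUM159PT. IFI44L differed by -2.01 ± 0.27 (adjusted p = 1.26e-05), with CPM of 3.10, 2.38, 2.40 and 2.11 against 3.12, 2.74, 3.00 and 2.51 in MDA-MB-231, where the groups overlapped and it was not called. IFIT2 differed by -1.35 ± 0.24 (adjusted p = 0.000288), OASL by -1.14 ± 0.27 (adjusted p = 0.00394) and IFIT1 by -0.91 ± 0.20 (adjusted p = 0.00184). These 3 RNA-binding effectors lay lower in SUM159PT relative to MDA-MB-231. SAMD9L differed by -1.31 ± 0.35 (adjusted p = 0.00913), with CPM of 4.18, 1.18, 2.11 and 1.55 against 0.909, 1.20, 1.06 and 1.77 in SUM159PT. It was not called in that line, though it was called lower there in the fit of all 16 libraries (-0.80, adjusted p = 0.0395). IFI6 differed by -0.68 ± 0.19 (adjusted p = 0.0128), PLSCR1 by -0.46 ± 0.12 (adjusted p = 0.00925) and IFIT5 by -0.60 ± 0.22 (adjusted p = 0.0474, ended in 13 of 24 settings with adjusted p up to 0.0984). The call for RSAD2 (adjusted p = 0.0377) rested on its 10 counts in SUM159PT siNS replicate 4, without which the adjusted p was 1.

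**Figure D5:**
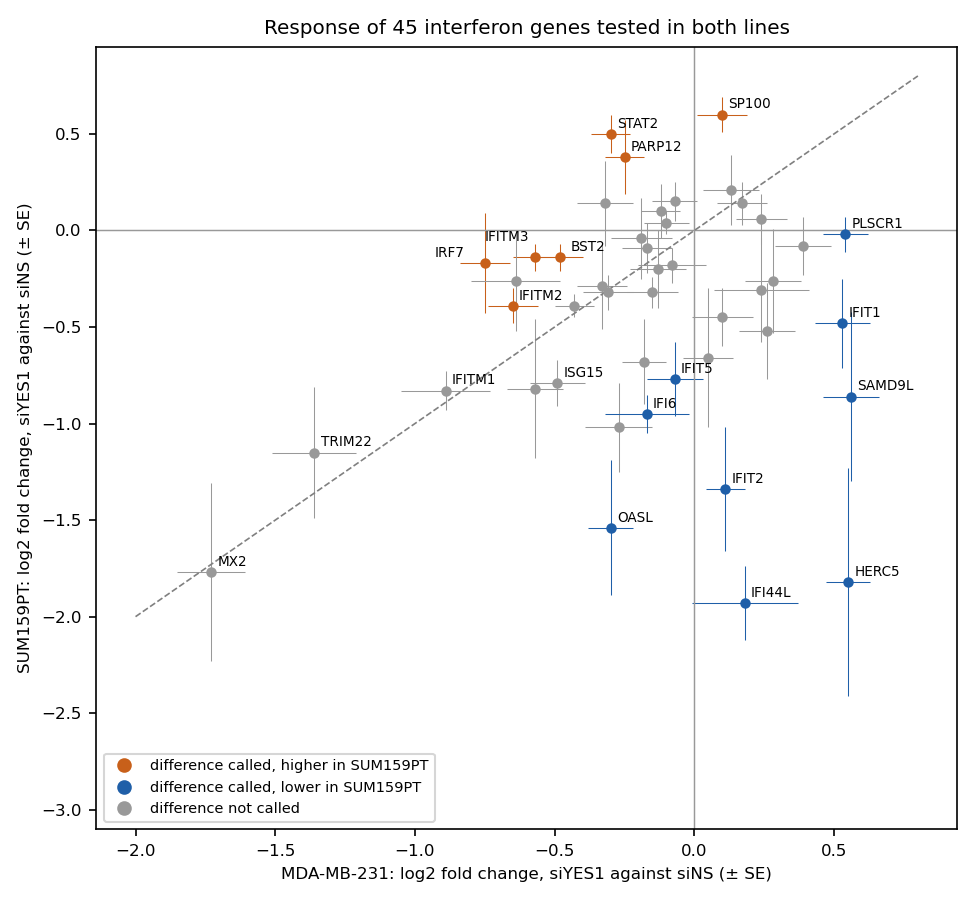
Log2 fold change of siYES1 against siNS in MDA-MB-231 (horizontal) and SUM159PT (vertical) for the 45 members tested in both, with bars of 1 standard error, a dashed line of equality and colours for the test of the difference between lines. MX2, TRIM22 and IFITM1 lie near the line at the lower left, HERC5 and IFI44L far below it and STAT2 far above it.

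Other genes of the pathway were grouped by role. Interferon transcripts were almost absent, with 8 of 10 interferon genes at 0 in all 16 libraries and IFNL1, a type III interferon, at 5, 2, 0 and 3 counts with siNS and 1, 0, 1 and 2 with siYES1 in MDA-MB-231. Of the receptors and JAK kinases, 1 rose and 1 fell of 8 tested in MDA-MB-231, and 1 rose and 2 fell of 9 in SUM159PT. All genes were called higher and lower in 24.9% and 27.5% in MDA-MB-231 and in 17.7% and 19% in SUM159PT, the shares against which the counts of each list below stand. JAK1 was the one that rose, from CPM of 146, 124, 129 and 123 to 160.7, 164.1, 148.7 and 144 in MDA-MB-231 (0.24 ± 0.08, adjusted p = 0.0137) and from 205, 261, 262 and 256 to 349, 320, 312 and 348 in SUM159PT (0.43 ± 0.09, adjusted p = 0.00175). The groups overlapped in the first line and not in the second. IFNGR2 fell by 0.21 in MDA-MB-231, and IFNLR1 by 0.60 and IFNGR1 by 0.27 on the log2 scale in SUM159PT.

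Of the nucleic acid sensing genes and their adaptors, 1 rose and 5 fell of 13 tested in MDA-MB-231, and 2 rose and 6 fell of 12 in SUM159PT. CGAS, the cytosolic DNA sensor, had CPM of 55.4, 56, 51 and 50.3 with siNS and 76.3, 80.5, 89.8 and 86.8 with siYES1 in MDA-MB-231, without overlap (0.65 ± 0.08, adjusted p = 3.64e-06). It was not called in SUM159PT (-0.15 ± 0.14, adjusted p = 0.428), and the difference between lines was -0.70 ± 0.16 (adjusted p = 0.00229). TMEM173, or STING, the adaptor of CGAS, fell in both lines. It went from 75.3, 86.4, 87.0 and 84.2 to 65.8, 69.5, 67.2 and 71.1 in MDA-MB-231 (-0.28 ± 0.07, adjusted p = 0.00457). In SUM159PT it went from 10.9, 4.62, 5.78 and 6.27 to 1.5, 1.52, 1.59 and 0.408 (-2.47 ± 0.39, adjusted p = 0.000337), and the groups lay apart in both. The difference between lines was -2.10 ± 0.33 (adjusted p = 5.96e-05). TRAF3 (-0.58 and -0.40), MYD88 (-0.38 and -0.58) and TLR3 (-0.40 and -0.40) fell in both lines, and AIM2 (-1.88) and MAVS (-0.63) in SUM159PT.

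Among the negative regulators and nucleic acid clearance genes, 3 rose and 2 fell of 11 tested in MDA-MB-231, and 1 rose and 3 fell of 9 in SUM159PT. SOCS1, an inhibitor of JAK kinases that interferon itself induces, had CPM of 20.8, 22.4, 22.4 and 23.2 with siNS and 13.3, 11.3, 11.4 and 12 with siYES1 in MDA-MB-231 (-0.89 ± 0.10, adjusted p = 1.02e-06). In SUM159PT it went from 29.3, 30.6, 31.0 and 36.5 to 15.1, 18.2, 10.5 and 13.5 (-1.15 ± 0.16, adjusted p = 9.66e-05), so that no groups overlapped in either line. SOCS3, its relative, rose in MDA-MB-231 (0.85 ± 0.09, adjusted p = 5.83e-07) and was not called in SUM159PT (-0.05 ± 0.10, adjusted p = 0.706), a difference of -0.81 ± 0.14 (adjusted p = 0.000145).

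Antigen presentation genes outside the members differed between lines. In MDA-MB-231, 1 rose and 7 fell of 14, and in SUM159PT 3 rose and 3 fell of 14. The difference was called higher in SUM159PT for 8 of 14 (57.1%), where 15.4% of all genes were called so. That share depends on the scaling, with 2511 genes called higher in the main fit and 1375 under total counts. HLA-F fell by 1.32 and 0.67, NLRC5, the activator of class I genes, by 0.83 and 0.39, and HLA-B by 0.48 and 0.47 on the log2 scale in MDA-MB-231 and SUM159PT. ERAP1, a peptide-trimming protease, rose by 0.53 and 0.76, and TAP2 rose by 0.58 in SUM159PT. Of 3 chemokine genes tested in MDA-MB-231, CXCL11 fell from CPM of 11.2, 12.3, 6.76 and 9.68 to 3.69, 3.38, 3.88 and 2.90 (-1.53 ± 0.18, adjusted p = 2.54e-06), without overlap. Of 27 other interferon-induced genes tested outside the members, 4 rose (14.8%) and 11 fell (40.7%) in MDA-MB-231, and 4 rose (14.8%) and 7 fell (25.9%) in SUM159PT. GBP2 fell by 1.25 and DDX60 by 0.82 in MDA-MB-231, GBP5 by 2.51 in SUM159PT, and NT5C3A by 0.74 and 0.60 in the 2 lines. The highest log2 fold changes among these genes were 0.44 in MDA-MB-231 and 0.70 in SUM159PT.

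The ISRE core printed above was set beside the direction of the response, with no test. In MDA-MB-231 it was present in 7 of 11 risers with a promoter entry (63.6%), 8 of 12 that fell (66.7%) and 10 of 17 not called (58.8%). OAS1, RSAD2, XAF1 and SAMD9L were the risers with no match in the 300 bases. In SUM159PT it was present in 10 of 12 members that fell (83.3%), 14 of 22 not called (63.6%) and neither STAT2 nor SP100, which rose. Members with the core had a median log2 fold change of -0.07 in MDA-MB-231 (n = 25) and -0.35 in SUM159PT (n = 24), against -0.12 (n = 15) and -0.19 (n = 12) for those without. The median control difference between lines was -1.01 with the core and -2.18 without it. No match says only that these letters are not in this window.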

How the data were processed

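The deposited tables, 1 per line, hold raw counts per gene for 8 libraries each. Per the submitters' processing notes, the authors aligned reads with HISAT2 2.0.5 to hg38 and counted them with featureCounts 1.5.0-p3. No source used here gives the annotation release or strand setting, so reads of the 7 members whose exons overlap another gene on the same strand, and of 17 that overlap one on the other strand, may be split wrongly. Gene IDs were named from GENCODE 29 (58735 of 58735 matched), and TPM used its exon lengths. Differences were tested with edgeR 4.0.16 (TMM scaling, filterByExpr, quasi-likelihood F test) in R 4.3.3 and adjusted by Benjamini-Hochberg over all genes tested. The script was tested on simulated data. Alternatives were DESeq2 1.42.0, limma-voom 3.58.1, other scalings and filters, a replicate block, a joint fit and leaving out each library. Scaling factors within each line were added after seeing the data. Members and lists were chosen with earlier results of these data known. Genes with values are the largest called changes per comparison and the 5 transcription factors; further ones were chosen after their values were seen.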

Additional observations from a re-analysis of the deposited data

Results flagged for a closer look

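In 3 of 102 groups of 4 libraries, 1 library lay far from the other 3, where chance gives about 1 in 20 groups. BST2 was at 189 CPM in SUM159PT siYES1 replicate 2 and at 169 to 170 in the others. IFI27 was at 2.8 CPM in SUM159PT siNS replicate 3 against 2.41 to 2.43. IFITM2 was at 30.3 CPM in MDA-MB-231 siYES1 replicate 3 against 37.3 to 37.9.

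The effect of siYES1 differed between the lines for 17 of 51 members by the edgeR interaction test, as it did for 24.3% of all 16299 genes tested. The difference is given on the log2 scale as SUM159PT minus MDA-MB-231. It was higher for STAT2 (0.90), PARP12 (0.73), IRF7 (0.68), SP100 (0.59), IFITM3 (0.53), BST2 (0.44) and IFITM2 (0.36). It was lower for RSAD2 (-4.88), HERC5 (-2.29), IFI44L (-2.01), IFIT2 (-1.35), SAMD9L (-1.31), OASL (-1.14), IFIT1 (-0.91), IFI6 (-0.68), IFIT5 (-0.60) and PLSCR1 (-0.46). The RSAD2 value depends on the prior count and measures no fold, since the gene had counts in 1 of the 8 SUM159PT libraries. The calls of IFITM2, IFIT5, RSAD2 and IRF7 ended in 20, 13, 10 and 7 of 24 settings. Those of BST2 and PARP12 ended in 1, total counts as the scaling.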

How the results depend on the processing

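The control difference between lines kept 38 lower and 5 or 6 higher members under every alternative run, with medians of -1.28 to -1.16. In MDA-MB-231, total counts gave 7 members higher in place of 11 and a median of -0.18, with 3105 of all genes higher in place of 3570. The joint fit of 16 libraries gave 5 and -0.19, with 2230 of all genes higher. In SUM159PT total counts gave a median of -0.48 and 1394 higher and 4173 lower genes in place of 2566 and 2755. For the difference between lines total counts gave 3 higher and 17 lower members in place of 7 and 10, and 1375 and 2795 genes in place of 2511 and 1442. Total counts also moved the median of all genes to -0.20 in SUM159PT, to -0.19 for the difference and to -0.12 between controls. Leaving out each library in turn gave 7 to 13 higher and 17 to 22 lower members in MDA-MB-231 (median -0.15 to -0.11), 2 to 3 and 13 to 18 in SUM159PT (median -0.34 to -0.28), and 5 to 8 and 8 to 12 for the difference. The uncalled values of IRF1 and IRF3 in SUM159PT changed sign, to -0.07 under total counts and to 0.03 without siNS replicate 1. The cause was not tested. The single members checked were those with the largest called changes per comparison and, within each line, the 5 transcription factors. Less certain calls, such as those of IFIT3, SAMD9 and DTX3L in MDA-MB-231, lay outside this tally. For the members checked, 344 of 353 values under settings other than leaving out a library kept direction and call, 8 lost the call and 1 changed sign. Leaving out a library, 428 kept both, 25 lost the call, 2 gained it and 1 changed sign.

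No pairing by replicate number was seen. Same-numbered libraries had correlations of -0.139 to 0.101 in their deviations from the group means, against -0.23 to 0.232 for other pairs. Not every library correlated best with its own number. With 4 libraries per group this check is weak and cannot exclude a pairing. A replicate block gave 11 higher and 17 lower members for MDA-MB-231. It gave 2 and 17 for SUM159PT, then 7 and 10 for the difference, the counts found without it, though for the difference it added DDX58 and OAS2 (adjusted p = 0.0242 and 0.0483) and lost IFIT5 and IFITM2 (0.0862 and 0.0777). The biological coefficient of variation was 0.1647 in SUM159PT and 0.0988 in MDA-MB-231. At this depth 5 members were too low to test in SUM159PT and 1 in MDA-MB-231.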
